A study of Mus musculus with 3 samples.

Results

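Chemokine receptors of macrophages from mouse kidney are described here gene by gene. From a list of 9 receptor genes (Ccr1, Ccr2, Ccr7, Ccrl2, Cx3cr1, Cxcr4, Cxcr3, Xcr1 and Ackr3), the rows of the expression table with those symbols were taken. That gave 8 of the 14811 genes, and Cxcr3 was not analysed here. The samples were 3 RNA-seq libraries, from mouse 1, mouse 2 and mouse 3 of a single group. The animals were C57BL/6J mice that carried no labelled genetic change. They were given PBS (phosphate-buffered saline) into a vein 1 h before the kidneys were removed. Cells were freed with DNase, collagenase D and dispase and sorted by flow cytometry as macrophages, and the labels give neither the age of the mice nor the gate. There was no other treatment, so the comparisons are between genes within a library and between mice.

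Chemokine receptors are cell-surface proteins that cross the membrane 7 times and steer leukocytes along gradients of small secreted proteins. The conventional receptors act through inhibitory G proteins, which release signals to Rac and Rap GTPases and the actin skeleton, and G protein-coupled receptor kinases and arrestins then switch them off. Atypical receptors, such as Ackr3 and Ccrl2, bind ligands without this G protein signal and remove or present them instead. In kidney, mononuclear phagocytes that carry the fractalkine receptor Cx3cr1 form a network between the tubules, while Ccr2 is best known for the exit of monocytes from bone marrow into blood.

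A short stretch at the inner end of the third membrane helix is shown because, in conventional receptors, this site contacts the G protein. It was read from reference transcripts, as the first 21 bases from the start of the aspartate-arginine-tyrosine triplet or the codons in its place. Capitals mark the 3 codons of that triplet.
Ccr2: GATAGGTACttggctattgtt
Cx3cr1: GACCGGTACcttgccatcgtc
Cxcr4: GACCGGTACctcgctattgtc
Xcr1: CACCGATACctgtctgtagtg
Ackr3: GACCGCTATctctccatcacc
The search was for a codon followed by arginine, tyrosine and leucine or valine codons. A stretch was taken only where exactly 1 match lay within a set window of codons. That held for 7 of the 8 genes and not for Ccrl2, which need not mean that Ccrl2 has no match. Against the Cx3cr1 bases, counted from 1 at the left, Cxcr4 differed at 3 positions, all after the capitals. Ccr2 differed at 7, of which C3T and C4A lie in the capitals. The atypical Ackr3 differed at 6, of which G6C and C9T lie in the capitals, and Xcr1 at 8, including G1C in the first codon. By the number of differing bases, Ackr3 thus lay between Cxcr4 and Ccr2. This count does not tell changes that alter the amino acid from those that keep it. Because the search required arginine and tyrosine, only the first codon of the capitals could alter the amino acid. That codon gives aspartate in Ccr2, Cx3cr1, Cxcr4 and Ackr3 and histidine in Xcr1. With no stretch for Ccrl2, the count says nothing of atypical receptors as a class. These letters are reference sequence and were not measured in the mice.

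Levels are given as normalised reads, the authors' scaled read counts less the 1 that had been added to each. Reads over the listed genes, recovered from the scaled counts, came to 50951549 in mouse 1, 56718534 in mouse 2 and 50646558 in mouse 3. A gene at 0 may still have had up to 2.42, 1.66 or 2.11 normalised reads in mice 1, 2 and 3 (a floor of 3 reads, for counting error only). All 10 macrophage marker genes, among them Adgre1, Csf1r and C1qa, stood at 1000 or more in every mouse. The gene of the neutrophil protein S100a9 and the T cell gene Cd3e were at 0 in every mouse. In mice 1, 2 and 3, normalised reads of the B cell gene Cd79b were 227, 3939.8 and 6359, while those of the NK cell gene Klrd1 were 512, 466 and 2034. Eomes, the other gene of the NK cell list with a row, was at 0 in every mouse. S100a9 and Cd79b were each the only gene of their list with a row, so neither list rests on more than that gene. Tubule genes were present at a summed 4344, 21545 and 2112 normalised reads in mice 1, 2 and 3. Markers of all other cell types that had a row together came to 6.09%, 8.22% and 9.13% of the macrophage list in mice 1, 2 and 3. In sorted bulk samples, fewer cells with a transcript and less transcript per cell cannot be told apart.

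The 8 receptors together took 0.0729% ± 0.0313 of the reads (SD, n = 3). Of the 8, 4 reached 100 normalised reads in every mouse (Ccr2, Cx3cr1, Cxcr4 and Ccr1), 3 were above 0 in every mouse but differed over 100-fold between mice (Ccrl2, Xcr1 and Ackr3), and Ccr7 was at 0 throughout. Of all 14811 genes, 30.3% reached 100 in every mouse.

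**Figure D1:**
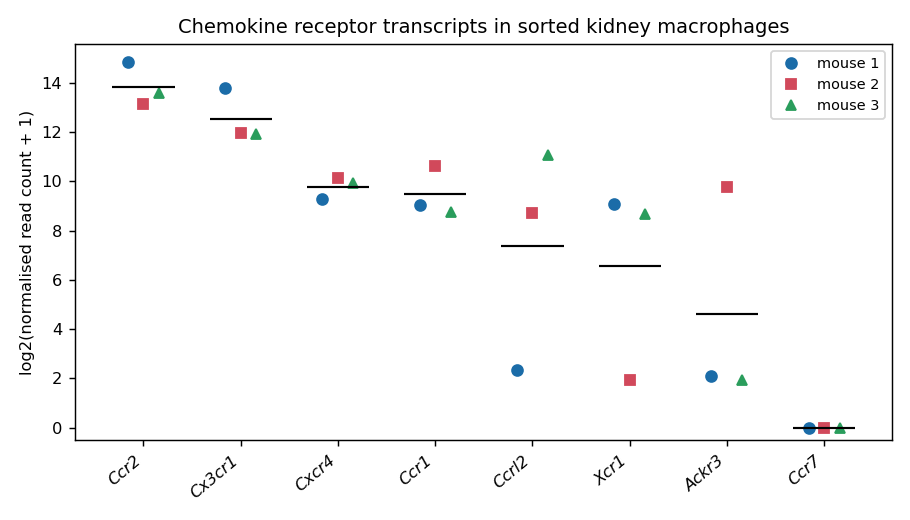
Level of each receptor gene, as log2 of the normalised read count plus 1, in mouse 1 (circles), mouse 2 (squares) and mouse 3 (triangles), with a line at the mean of the 3. Ccr2 and Cx3cr1 are highest, Ccrl2, Xcr1 and Ackr3 are split between mice, and Ccr7 is at 0 in all 3.

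Ccr2 (ENSMUSG00000049103.13), the receptor for Ccl2, Ccl7 and Ccl12, was the most abundant receptor of the 8. It stood at 29145, 8939 and 12215 normalised reads in mice 1, 2 and 3 (16766 ± 10845, SD, n = 3). Mouse 1 was 3.26-fold above mouse 2, far outside the counting intervals of either library (95% exact Poisson, 28845 to 29447 and 8801 to 9078). Folds between mice also depend on the authors' scaling, which these intervals do not cover. Under it, the normalised totals were 41090917, 31477806 and 35696101 in mice 1, 2 and 3. Per kb of exon, which allows genes of different length to be compared, Ccr2 was at 4311, 1322 and 1807 normalised reads. The exon length used for Ccr2, 6.76 kb, joins all its annotated transcripts, one of them long, so its level per kb may be too low. Only 3.15%, 8.18% and 7.33% of the genes tested lay above it in mice 1, 2 and 3.

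Cx3cr1 (ENSMUSG00000052336.6), which binds the membrane-bound chemokine Cx3cl1, came next at 13939, 3931 and 3882 normalised reads (7251 ± 5792, SD, n = 3). Like Ccr2 it was highest in mouse 1, and its other libraries differed little. Per kb, Cx3cr1 was at 3094, 873 and 862, which put 4.78%, 11.8% and 14.5% of the genes tested above it. Within a library, the level per kb of Cx3cr1 was 0.718, 0.660 and 0.477 of that of Ccr2 in mice 1, 2 and 3, so the ratio moved less between mice than either gene. The size of this ratio depends on the exon length of Ccr2, and without division by length the log2 difference was -1.30 in place of -0.72.

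Transcripts of classical monocytes, which carry Ccr2, were also highest in mouse 1. Ly6c2 stood at 1069 normalised reads in mouse 1, 2.77 in mouse 2 and 0.705 in mouse 3, and Plac8 at 465 in mouse 1 and 0 in both others. The 4 genes of this list with a row summed to 1665, 3.88 and 40.9 normalised reads, and Vcan was at 0.806 in mouse 1 and 0 in both others. Ccr2 itself stood at 29145, 8939 and 12215 normalised reads in mice 1, 2 and 3. The part of classical monocytes in the levels of Ccr2 and Cx3cr1 was not tested. Non-classical monocyte genes summed to 336, 1748 and 4419 normalised reads in mice 1, 2 and 3, of which Spn made up 4336 in mouse 3. Itgal (12.9, 1120.0 and 43.7), Nr4a1 (0.806, 254 and 38.8) and Ace (20.2, 41.1 and 0.705) were highest in mouse 2, and Eno3 and Treml4 were at 0 in every mouse.

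Cxcr4 (ENSMUSG00000045382.6), the receptor for Cxcl12 that holds many leukocytes in place, was the steadiest of the receptors detected. It stood at 619, 1110.0 and 969 normalised reads in mice 1, 2 and 3 (899 ± 253, SD, n = 3), and its highest library was 1.79-fold above its lowest. Unlike Ccr2 and Cx3cr1, Cxcr4 was lowest in mouse 1. Of 2105 genes within 1 log2 unit of its level, 89.4% had a larger SD between mice than Cxcr4.

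Ccr1 (ENSMUSG00000025804.4), a receptor for several inflammatory chemokines including Ccl3 and Ccl5, was at 528, 1564 and 426 normalised reads in mice 1, 2 and 3 (840 ± 629, SD, n = 3). Mouse 2 was highest, which is the mouse in which Ccr2 was lowest. Its SD on the log2 scale, 1.00, was below the median of 1.70 over 2064 genes near its level.

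Ccrl2, Xcr1 and Ackr3 were each abundant in some mice and nearly absent in others. Of the 10520 genes above 0 in every mouse, 29.8% likewise differed over 100-fold between their highest and lowest library, so this pattern was common in these libraries. Because of it, a mean over the 3 mice says little for these genes, and the values by mouse are given.

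Ccrl2 (ENSMUSG00000043953.12), an atypical receptor that binds chemerin and presents it to neighbouring cells, stood at 4.03, 421 and 2157 normalised reads in mice 1, 2 and 3. These are 5, 759 and 3060 reads, so the low value of mouse 1 rests on very few reads while the other libraries do not. The SD of Ccrl2 on the log2 scale, 4.52, was exceeded by 8.34% of 2111 genes near its level. Cd40, which dendritic cells also raise on maturation and which stands in the mature dendritic cell list, had 9.68, 542 and 5283 normalised reads in the same order of mice. The rest of that list did not follow, with Fscn1 at 2.11 or less and Ccl17, Ccl22 and Socs2 at 0 in every mouse. Il4i1, at 428, 7.21 and 24.0 in mice 1, 2 and 3, was highest where Ccrl2 was lowest. Immediate early and dissociation genes, which tissue digestion can induce, summed to 11572, 3770.0 and 14637 normalised reads, and their part in the levels of Ccrl2 and Cxcr4 was not tested.

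Xcr1 (ENSMUSG00000060509.4), the receptor for Xcl1 by which type 1 conventional dendritic cells are recognised, stood at 534, 2.77 and 407 normalised reads in mice 1, 2 and 3. Mice 1 and 3 were alike, and mouse 2 had 5 reads. Other genes of that dendritic cell type were present in all 3 mice. Clec9a stood at 3421, 1330.3 and 1463, Batf3 at 1269, 1794 and 2456, and Cadm1 at 25359, 4900.5 and 15740.5 normalised reads. Clec9a, Cadm1 and Wdfy4 (804, 71.6 and 1395.5) were lowest in mouse 2, as Xcr1 was, while Batf3 and Tlr3 (49.2, 191 and 2281) were lowest in mouse 1, where Xcr1 was highest. All 5 genes of this list with a row were above 0 in every mouse, and the list, most of it Cadm1, summed to 30903, 8288 and 23335 normalised reads. The list of type 2 and general dendritic cell genes was split. Flt3, a receptor of dendritic cells in general, was at 4.84 in mouse 1 and 0 in both others. Zbtb46 was at 16.2 in mouse 3 and 0 in both others, Irf4 at 123 in mouse 2 and 0 in both others, and Cd209a at 0 throughout. Mgl2, however, stood at 6886, 7759 and 17498 and Clec10a at 2660, 18.3 and 1637 normalised reads in mice 1, 2 and 3. The part of dendritic cells in the level of Xcr1 was not tested.

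Ackr3 (ENSMUSG00000044337.5), an atypical receptor that takes up Cxcl12, was at 3.23, 873 and 2.82 normalised reads in mice 1, 2 and 3. It thus rested on 1573 reads in mouse 2 and on 4 reads in each of the others. Mouse 2 was also the library with the most tubule transcripts, where Slc34a1 reached 8606 and Lrp2 8594 normalised reads, against 2399 and 1697 in mouse 1 and 915 and 122 in mouse 3. All tubule genes of the list were highest in mouse 2 except Umod, which was highest in mouse 3 (40.3, 598 and 998 in mice 1, 2 and 3). Endothelial genes did not move together. Kdr stood at 453, 7.77 and 1345 normalised reads in mice 1, 2 and 3, whereas Emcn (71.8, 99.3 and 38.1) and Cdh5 (0, 25.0 and 0) were highest in mouse 2, and Tek was at 0 in every mouse. The list summed to 525, 132 and 1384. The part of either cell type in the level of Ackr3 was not tested.

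Ccr7 (ENSMUSG00000037944.8), which guides mature dendritic cells and lymphocytes to lymph nodes, had 0 reads in every mouse. Among its ligands, Ccl21a was also at 0 in every mouse, and Ccl19 stood at 199, 1.11 and 0 normalised reads.

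**Figure D2:**
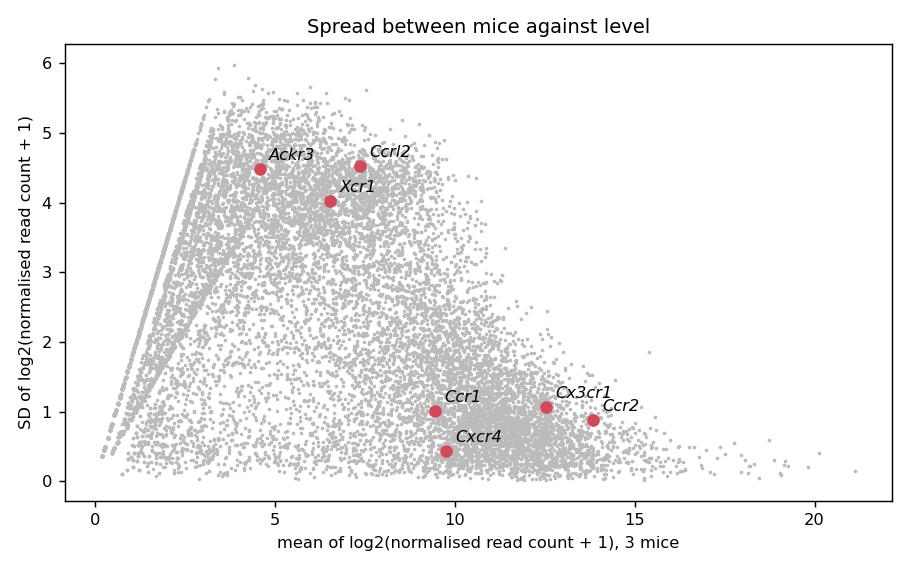
SD between the 3 mice against the mean, both of log2 of the normalised read count plus 1, for every gene tested (grey) and for the 7 receptors above 0 (red). Ccrl2, Ackr3 and Xcr1 lie in the cloud of highly variable genes with SDs of 4.02 to 4.52, and Cxcr4 is the least variable receptor at 0.44.

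To place the receptors among all genes, each gene's log2 level per kb was taken relative to the median gene of its library, and its mean over the 3 mice was tested against 0 (limma, two-sided, over 13792 genes above 0 in any library). Of the 7 receptors in this test, 3 were higher than the library median at an adjusted p under 0.05, none was lower (nor at an unadjusted p under 0.05) and 4 were not called. Over all genes tested, 16.3% were higher and 15.2% lower. The median of the 7 receptors was 2.87 log2 units, against -0.49 over all genes tested.

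Ccr2 lay 5.99 ± 1.11 log2 units above the library median (SE, adjusted p = 0.0164, limma), Cx3cr1 5.27 ± 1.12 (adjusted p = 0.0216, limma) and Cxcr4 3.82 ± 1.01 (adjusted p = 0.0368, limma), each above it in 3 of 3 mice. Ccr1 was above it in 3 of 3 mice without passing the test (2.87 ± 1.01, adjusted p = 0.0771, limma). Ccrl2 (0.90 ± 1.79, adjusted p = 0.721, limma), Xcr1 (-0.70 ± 1.87, adjusted p = 0.792, limma) and Ackr3 (-2.25 ± 1.65, adjusted p = 0.328, limma) did not pass and were not on the same side in all mice. Without mouse 2, Ackr3 lay at -5.03 (adjusted p = 0.0736, limma). The calls rest on few animals. Without mouse 2 all 3 calls were lost (adjusted p = 0.0735, 0.0768 and 0.102 for Ccr2, Cx3cr1 and Cxcr4, limma). That loss was not particular to the receptors, because limma then called 0 genes in all, and Ccr2 and Cx3cr1 lay at 6.15 and 5.38. Without mouse 1 Cx3cr1 and Cxcr4 were lost (adjusted p = 0.0903 and 0.147, limma), and without mouse 3 Cxcr4 was lost (adjusted p = 0.174, limma). All 3 calls were also lost when only genes with a mean of 10 or more were fitted, where limma called 0 genes in all (2186 higher and 1990 lower at an unadjusted p under 0.05).

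**Figure D3:**
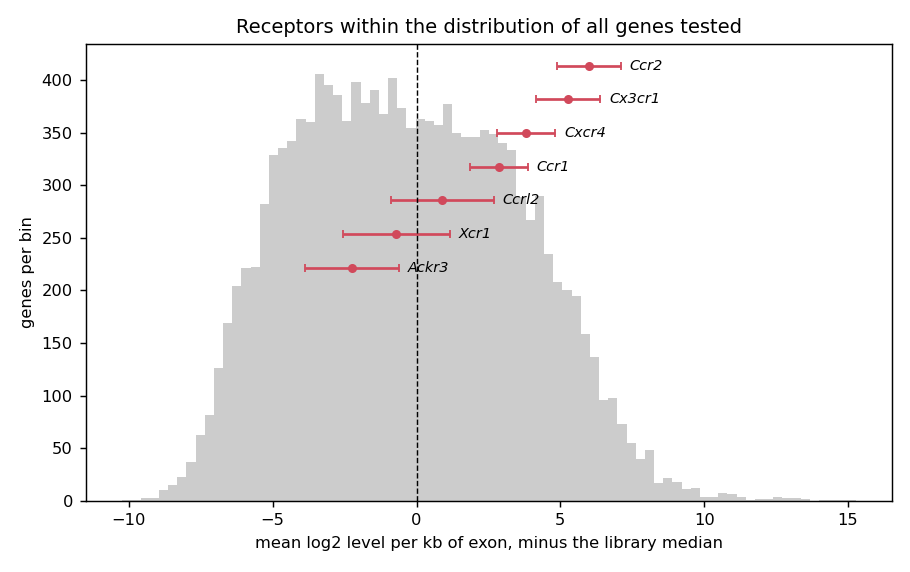
Distribution over 13792 genes of the mean log2 level per kb of exon relative to the library median (grey bars, dashed line at 0), with the 7 receptors above 0 as points with SE bars, whose height on the page has no meaning. Ccr2, Cx3cr1 and Cxcr4 lie to the right, at 5.99, 5.27 and 3.82, and Ackr3 is left of the line at -2.25.

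By mean log2 level per kb the order was Ccr2, Cx3cr1, Cxcr4, Ccr1, Ccrl2, Xcr1, Ackr3 and, at 0, Ccr7. No neighbours in this order were called different. The SE of these fits is moderated over all genes, so it is not the spread of the pair alone. Of the 6 pairs of neighbours above 0, 0 were called in limma fits over all genes with the higher member as denominator, and 0 had an unadjusted p under 0.05. In the same fits 72.3% of genes were called below Ccr2, 62.6% below Cx3cr1, 46.2% below Cxcr4, 47.2% below Ccr1 and 0% below Ccrl2 or Xcr1, where 1582 and 453 genes had an unadjusted p under 0.05. Cx3cr1 was below Ccr2 in 3 of 3 mice (log2 difference -0.72 ± 0.96 SE, adjusted p = 0.519, limma). Cxcr4 was below Cx3cr1 in 3 of 3 mice (log2 difference -1.45 ± 1.23 SE, adjusted p = 0.324, limma), and Ccr1 below Cxcr4 in 3 of 3 (log2 difference -0.95 ± 0.94 SE, adjusted p = 0.417, limma). The 3 lower pairs kept their order in 2 of 3 mice each.

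Some receptors far apart in the order were called different. Among all 21 pairs, a set added after the values were seen, 6 were called. The direction of each pair was set by the order of the same values. Of all genes in these fits, 72.3% were called below Ccr2, 62.6% below Cx3cr1, 46.2% below Cxcr4 and 47.2% below Ccr1. Such calls were thus common and not particular to the receptors. Xcr1 and Ackr3 were below Ccr2 (log2 difference -6.69, adjusted p = 0.0172 and log2 difference -8.24, adjusted p = 0.0215, limma, 3 of 3 mice each) and below Cx3cr1 (log2 difference -5.98, adjusted p = 0.0220 and log2 difference -7.52, adjusted p = 0.0211, limma, 3 of 3 mice each). Ackr3 was also below Cxcr4 (log2 difference -6.07, adjusted p = 0.0418, limma) and Ccr1 (log2 difference -5.11, adjusted p = 0.00764, limma), in 3 of 3 mice each. Without mouse 1 all 6 of these calls were lost, and the 1 pair called was Xcr1 below Ccr1. Without mouse 2 the calls of Xcr1 below Cx3cr1 and of Ackr3 below Ccr1 were lost. Without mouse 3 those of Ackr3 below Ccr2, Cx3cr1 and Ccr1 were lost. No call among the 6 thus held whichever mouse was left out.

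The genes whose normalised reads were most like those of the 2 highest receptors in all 3 libraries were found by the largest log2 difference in any library. For Ccr2 they were Ghitm (0.24), Hsp90b1 (0.28) and Adcy7 (0.28), and for Cx3cr1 Luc7l2 (0.18), Crebzf (0.23) and Samhd1 (0.25). With 3 libraries, such likeness is a likeness of level and of being highest in mouse 1.

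Of the other chemokine receptors described here, 3 had a row. Cmklr1, the signalling receptor for the chemerin that Ccrl2 presents, was low at 26.6, 3.88 and 83.9 normalised reads in mice 1, 2 and 3. Cxcr1 and Cxcr6 were at 0 in every mouse.

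Transcripts of several ligands of the receptors were present in the same libraries, and which cells carried them was not tested. Of 12 ligand genes tested, 6 were higher than the library median, 1 was lower and 5 were not called, beside 16.3% higher and 15.2% lower over all genes tested. Their median was 4.42 log2 units. The 6 higher ones are ligands of Ccr1 or Ccr2. Ccl6 stood at 40253, 27773 and 58761 normalised reads in mice 1, 2 and 3, Ccl9 at 11786, 16232 and 14277, and Ccl12 at 11525, 6545 and 9251. Ccl3 (6470.3, 1660.5 and 17680.1), Ccl2 (2765, 657 and 12488) and Ccl5 (2332, 979.5 and 1103) varied more, and Ccl2 and Ccl3 were highest in mouse 3. Ccl7, a further Ccr2 ligand, was at 2.42 and 2.22 in mice 1 and 2 but at 1108 in mouse 3.

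Ligands of the other receptors differed widely in level. Cx3cl1, the ligand of Cx3cr1, was at 32.3 in mouse 1 and 0 in both others, and was lower than the library median (log2 difference -5.39 ± 1.50 SE, adjusted p = 0.0425, limma). Cxcl12, bound by Cxcr4 and Ackr3, stood at 580, 18.3 and 0 normalised reads in mice 1, 2 and 3. The ligands of Cxcr3 were present, Cxcl9 at 7236, 990 and 206 and Cxcl10 at 1177, 3259 and 16.9 normalised reads.

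**Figure D4:**
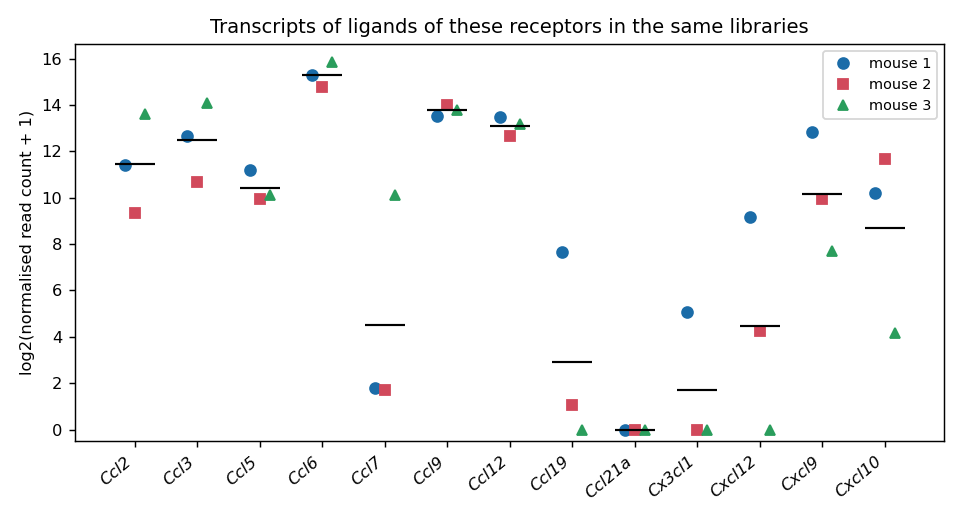
Level of 13 ligand genes, as log2 of the normalised read count plus 1, in mouse 1 (circles), mouse 2 (squares) and mouse 3 (triangles), with a line at the mean. Ccl6, Ccl9 and Ccl12 lie close together in all mice, Cx3cl1 is at 0 in mice 2 and 3, Cxcl12 at 0 in mouse 3, and Ccl21a is at 0 in all 3.

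The signalling machinery behind the receptors was present. Of 32 listed genes tested, 14 were higher than the library median, 1 was lower and 17 were not called, beside 16.3% higher and 15.2% lower over all genes tested. Their median was 3.37 log2 units. Highest per kb were the GTPases Cdc42 (48527 ± 6742 normalised reads, SD, n = 3) and Rap1b (27751 ± 8756), then Rgs2 (30160.3 ± 8811), Rgs10 (12271 ± 1195) and Rgs19 (8714 ± 1568), which speed the shut-off of G proteins, and the G protein subunit Gng5 (8344 ± 1210). The inhibitory G protein subunits Gnai2 (4702 ± 3931) and Gnai3 (3242 ± 2098) and the arrestin Arrb2 (3813 ± 995) were among the higher genes too. Gnai1 was at 1.61, 331 and 2.11 normalised reads in mice 1, 2 and 3. The receptor kinase Grk5 was the 1 lower gene, at 11.3 in mouse 1 and 0 in both others, while Adrbk1, which encodes another such kinase, was at 1320.2, 1227 and 1177.

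**Figure D5:**
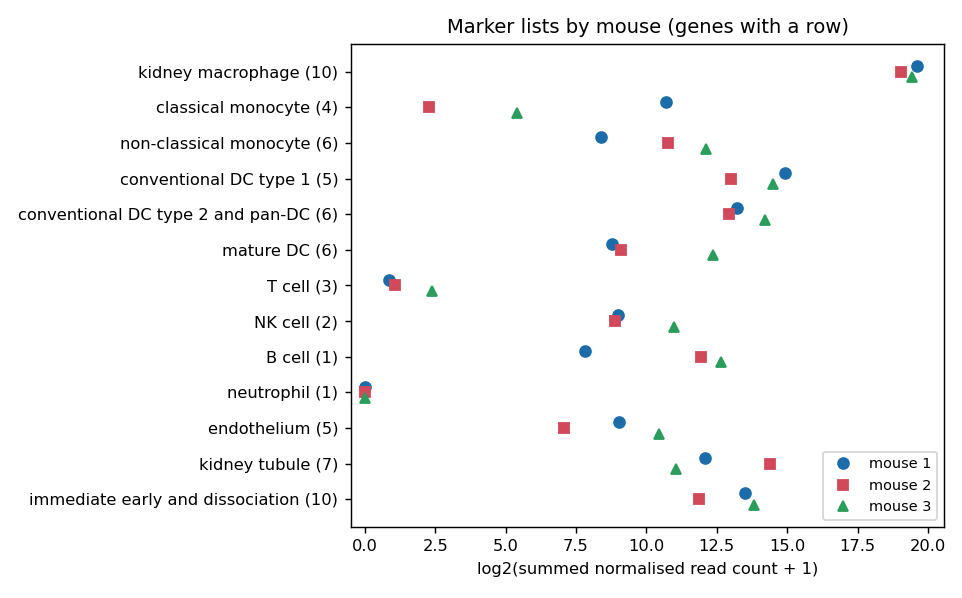
Summed level of each marker list, as log2 of the summed normalised read counts plus 1, in mouse 1 (circles), mouse 2 (squares) and mouse 3 (triangles); the number of genes with a row is in brackets. Macrophage genes are highest in all mice, classical monocyte genes are high in mouse 1 only and tubule genes are highest in mouse 2.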

How the data were processed

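RNA-seq was available for 3 libraries. The authors deposited a normalised signal per gene, made with HTSeq 0.5.4 (a read counter) and DESeq 1.18.0 (scaling) on build mm9, per the submitters' processing notes. For the aligner and the annotation, nothing is given in the sources used here. Per the labels' protocols, cDNA was amplified with SMART-seq v4, and libraries were made from 10 ng of cDNA with 8 PCR cycles. There were no molecular identifiers, so intervals and floors cover counting error only.

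The lowest deposited value is 1, and after subtraction of 1, in each library 100% of the values above 0 were a whole number of equal steps, to within 0.05 of a step. The step gave the reads behind each value. Exon lengths came from GENCODE M21 by gene identifier, for 99.7% of genes. That annotation is of another build, so no coordinates are given. Sequences came from its transcripts, in the longest open reading frame.

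Log2 values used a pseudocount of 1 and understate differences of low genes. Tests used limma 3.58.1 in R 4.3.3 (moderated, intercept only, two-sided, Benjamini-Hochberg over all genes of a fit). An exact sign test of 3 libraries cannot pass 0.05. Members and gene lists were chosen with earlier results of these data known. A gene of these lists is not reported here. Named genes were the members, ligands and other receptors above 0 in every mouse, and the 6 signalling genes highest per kb. Also named were the 3 genes most like each of the 2 highest members, markers of types a member marks, and others chosen after their values were seen. Python 3.11.15 did the rest. The alternatives tried are given in the closing section.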

Additional observations from a re-analysis of the deposited data

How the results depend on the processing

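Ccr2, Cx3cr1 and Cxcr4 were, in this order, the 3 highest receptors under all 6 alternatives for the order. With only genes of a mean of 10 or more, limma called 0 genes higher, 0 lower and 0 receptors higher (2186, 1990 and 3 at an unadjusted p under 0.05), against 2242, 2102 and 3, and Ccrl2 lay at -0.34 log2 units against the library median in place of 0.90. Leaving out each mouse gave 0 to 1222 genes higher, 0 to 1773 lower, and 0 to 2 receptors higher (without mouse 2, 2689, 2630 and 3 at an unadjusted p under 0.05). The receptor pairs called came to 1 to 6 when each mouse was left out, and to 11 with a spread trend. The pairs called differed with the mouse left out. Cxcr4 lost its call with a pseudocount of 0.1 (adjusted p = 0.0677, limma) and without division by length (adjusted p = 0.0820, limma). Ccr1 was called with no filter (adjusted p = 0.0388, limma) and with a spread trend (adjusted p = 0.0365, limma). Leaving out each mouse gave log2 values of -1.29 to 3.05 for Ccrl2, -2.33 to 1.42 for Xcr1 and -5.03 to -1.26 for Ackr3 against the library median. It gave -4.18 to 0.35 for Ccrl2 below Ccr1, -5.38 to 1.39 for Xcr1 below Ccrl2 and -6.45 to 0.97 for Ackr3 below Xcr1. The cause of these changes was not tested. A count test on the recovered reads was not run. No paired analysis was possible because there is a single group. Reads in single figures behind the low values of Ccrl2, Xcr1 and Ackr3 limit what can be said of them.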
